A study of Mus musculus with 7 samples.

Results

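The 10 genes described here encode the mouse enzymes that remove superoxide and peroxide: the superoxide dismutases Sod1, Sod2 and Sod3, catalase (Cat) and the peroxiredoxins Prdx1 to Prdx6. They were taken by symbol, as the rows of the deposited table whose Ensembl identifier maps to these names, and each symbol matched 1 of the 48526 genes in the table. The set was chosen with earlier results of these data known. Poly(A)-selected RNA of tissue labelled brain was sequenced from mice of 24 months in 7 libraries, 4 labelled on and 3 labelled off. Both groups carry the V1S and SV2 constructs, which join α-synuclein to parts of the fluorescent protein Venus so that oligomers are seen by complementation. Glucose stands in the labels of the on group, and Dox (doxycycline) in those of the off group. The state of the constructs and doxycycline therefore change together and cannot be told apart. The promoter that drives the constructs, the brain region, and whether each library came from a separate animal are not stated in the sources at hand, so the p-values speak for the spread among these 7 libraries, which may be technical.

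Superoxide leaks from the respiratory chain and from oxidases. Superoxide dismutases convert it to hydrogen peroxide and oxygen, each in its own place: Sod1, with copper and zinc, in the cytosol, Sod2, with manganese, in the mitochondrial matrix, and Sod3 outside the cell. Hydrogen peroxide is then split by catalase in peroxisomes or reduced by peroxiredoxins, whose catalytic cysteine is oxidised by peroxide and restored by thioredoxin, or in the case of Prdx6 by glutathione. In brain these enzymes are best known for protecting neurons and glia with a high oxygen demand.

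Levels are given as rlog, the authors' regularized log2 values, in which each gene's deviations from its mean are shrunk, and depth per library is unknown. Genes with a mean rlog of 3 or more were tested, 17896 in all, and all 10 enzymes passed this filter. The labelled tissue carried its markers: all 9 neuron, 8 astrocyte and 6 oligodendrocyte markers were tested, with group means of 11.07 or more. On replicate 1 stood apart from the other on libraries. Its mean deviation from the gene means over 6 endothelial markers was -0.238, that of on replicates 2 to 4 ran between 0.133 and 0.176, and that of the off group between -0.226 and 0.0378. Over 7 nuclear RNAs, a sign of RNA quality, it was -0.0876 in that library, between 0.162 and 0.226 in on replicates 2 to 4 and between -0.308 and -0.0758 in the off group. The difference of each enzyme and the calls in each list are therefore given with and without on replicate 1. In limma with all 7 libraries, 4 of 7 markers of olfactory sensory input and bulb were called lower in on (median difference -0.307). After the correction for GC content and length described below, 3 were (median -0.252). Without on replicate 1, 4 were called lower and 1 higher. Of the 7 nuclear RNAs, 2 were called higher (median 0.269), 1 after the correction and 6 without on replicate 1. The other marker lists had 0 calls with all 7 libraries. Without on replicate 1, 5 of 6 endothelial markers (median 0.261) and 3 of 6 mural cell markers (median 0.195) were called higher. In that fit 1 marker each was called lower among the neuron, oligodendrocyte and microglia markers. The astrocyte, erythrocyte, choroid plexus and meningeal fibroblast lists had 0 calls. Of all 17896 tested genes, 1481 were called higher and 1436 lower in that fit. The part of these markers in the results was not tested.

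None of the 10 enzymes passed the threshold between on and off brains with all 7 libraries. Their differences were small, between -0.15 for Prdx5 and 0.0038 for Cat, and 9 of the 10 were negative. Of the 10, 7 were negative after the correction for GC content and length described below. Among all tested genes 48.5% were negative before it. That share was 64.3% in the shortest of 5 classes of gene length, which holds 2 of the enzymes. It was 62.5% in the next class, which holds 4. In limma at an adjusted p of 0.05, 0 of the 10 were called lower, against 1.79% of all tested genes, and 0 were called higher, against 0.816%. At an unadjusted p under 0.05 there were 2, Prdx5 and Prdx3, where 3697 of the 17896 tested genes, or 20.7%, stood there. On and off libraries overlapped in all 10, whereas they did not overlap in 8.09% of tested genes with the on libraries lower and in 7.13% with the on libraries higher. The median difference over the 10 was -0.05, against 0.0029 over all tested genes. In bulk brain RNA, fewer cells of a type and less RNA per cell cannot be told apart.

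On replicate 1 had the highest on value in 9 of the 10 enzymes. Its value lay below all 3 off libraries in 1 enzyme (Sod2), within their range in 5 and above all of them in 4 (Prdx2, Prdx4, Sod1 and Cat). On replicates 2, 3 and 4 lay below all off libraries in 8, 6 and 7 of the 10, and none of them lay above all off libraries in any of the 10. The mean deviation over the 10 enzymes was 0.0615 in on replicate 1, -0.0794, -0.0357 and -0.0518 in on replicates 2 to 4, and 0.0248 to 0.041 in the off libraries. Without on replicate 1, 4 of the 10 were called lower: Prdx5, Prdx2, Prdx3 and Sod1. That share is read against 8.02% of all tested genes called lower in the same fit, since the removal raised calls throughout the table. None of these 4 was called when the trend with GC content and length, described below, was removed as well.

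**Figure D1:**
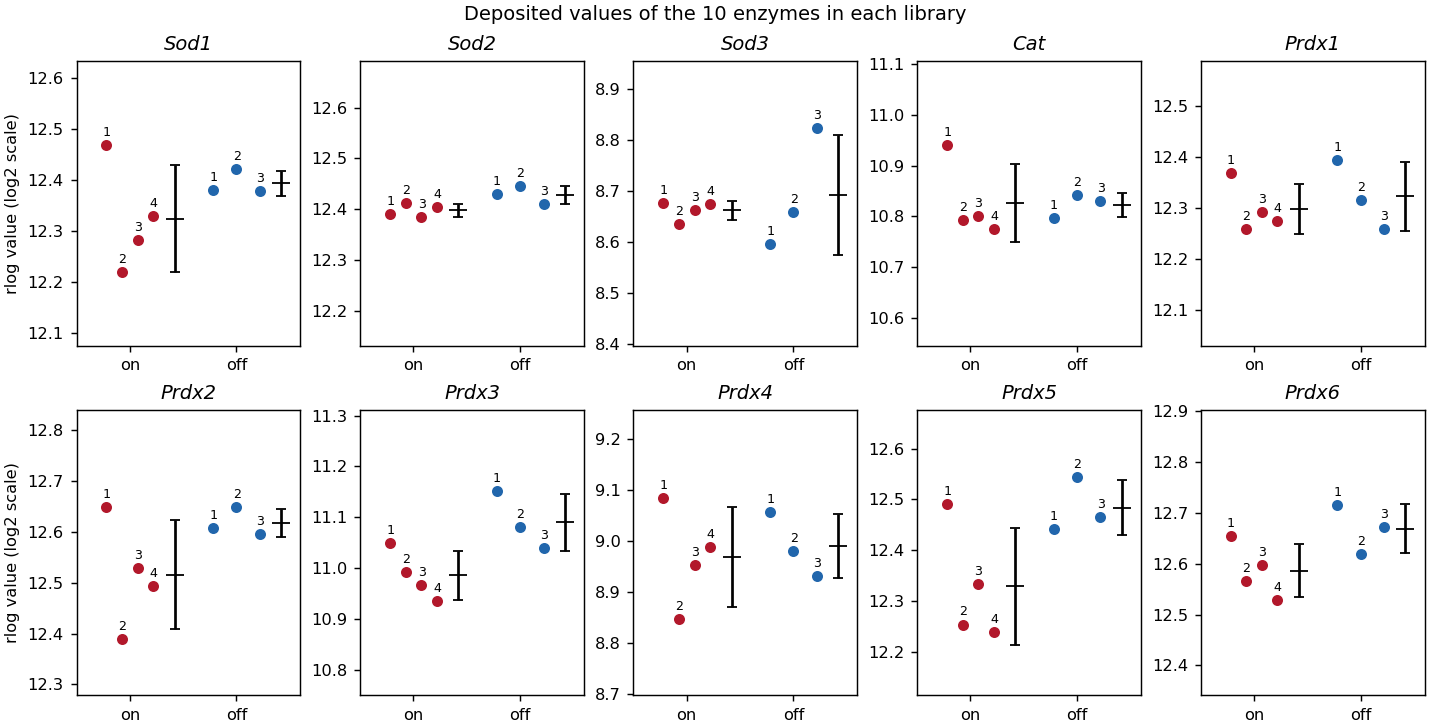
Each panel plots the deposited rlog value (y axis, log2 scale, the same span of 0.56 in every panel) of 1 enzyme in the 4 on libraries (red, left) and the 3 off libraries (blue, right), numbered by replicate, with the group mean and SD in black. On replicate 1 is the highest on library in 9 of the 10 panels, and Sod2 has the narrowest spread, 0.061 over the 7 libraries.

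The cytosolic enzyme Sod1 had values of 12.47, 12.22, 12.28 and 12.33 in on replicates 1 to 4, against 12.38, 12.42 and 12.38 in the off libraries. On replicate 1 exceeded every off library and the other 3 on libraries lay below every off library. The means were 12.32 ± 0.11 in on and 12.39 ± 0.02 in off (SD, n = 4 and 3), and the difference was -0.069 ± 0.05 (SE; 95% interval -0.18 to 0.04; limma adjusted p = 0.463). Without on replicate 1 Sod1 was lower by a difference of -0.12 ± 0.04 (SE, adjusted p = 0.0495), close to the threshold. Sod1 (ENSMUSG00000022982) lies on chromosome 16 at 90220754 to 90226329 on the plus strand (GRCm38, GENCODE M21).

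Sod2, the manganese enzyme of the mitochondrial matrix, had the narrowest spread of the 10, with 12.39, 12.41, 12.38 and 12.41 in on replicates 1 to 4, against 12.43, 12.45 and 12.41 in the off libraries. On replicate 2 was just above off replicate 3, and the other on libraries lay below all 3 off libraries. The difference was -0.03 ± 0.03 (SE; 95% interval -0.1 to 0.04; adjusted p = 0.648), and without on replicate 1 it was -0.028 ± 0.04 (SE). Sod2 (ENSMUSG00000006818) is on chromosome 17 at 13006846 to 13040063, plus strand.

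Sod3, the secreted enzyme, had 8.68, 8.64, 8.66 and 8.67 in the on libraries, against 8.60, 8.66 and 8.82 in the off libraries. The 4 on values lay between the off values, and off replicate 3 alone was high. The means were 8.66 ± 0.02 in on and 8.69 ± 0.12 in off (SD), with a difference of -0.03 ± 0.06 (SE; 95% interval -0.15 to 0.09; adjusted p = 0.808). The difference was -0.035 ± 0.06 (SE) without on replicate 1 and 0.036 ± 0.05 (SE) without off replicate 3. Sod3 (ENSMUSG00000072941) is on chromosome 5 at 52363791 to 52371418, plus strand.

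Cat, the peroxisomal enzyme that splits hydrogen peroxide without a partner, had 10.94, 10.79, 10.80 and 10.77 in on replicates 1 to 4, against 10.80, 10.84 and 10.83 in the off libraries. On replicate 1 was the highest of the 7 and the other on libraries lay close to off replicate 1. The difference was 0.0038 ± 0.05 (SE; 95% interval -0.09 to 0.1; adjusted p = 0.974), and without on replicate 1 it was -0.034 ± 0.04 (SE). Red blood cells hold much catalase and Prdx2. The 6 erythrocyte markers had mean deviations of -0.176, 0.192, 0.0179 and -0.157 in on replicates 1 to 4, against 0.171, 0.0802 and -0.128 in the off libraries, and limma called 0 of the 6, with 0 at an unadjusted p under 0.05. Among them the anion exchanger Slc4a1 had 3.86 in on replicate 1, the highest of its 7 values, while the hemoglobin gene Hba-a1 had 5.25 there, the lowest of its 7. The part of blood in the values of Cat and Prdx2 was not tested. Cat (ENSMUSG00000027187) is on chromosome 2 at 103453849 to 103485160, minus strand.

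Prdx1, Prdx2 and Prdx4 are peroxiredoxins of the typical 2-Cys kind, which work as dimers. Prdx1 and Prdx2 act in the cytosol, and Prdx2 is abundant in neurons. Prdx2 had 12.65, 12.39, 12.53 and 12.49 in on replicates 1 to 4, against 12.61, 12.65 and 12.60 in the off libraries. On replicate 1 matched the highest off library and on replicates 2 to 4 lay below all off libraries. The means were 12.52 ± 0.11 in on and 12.62 ± 0.03 in off (SD), and the difference was -0.1 ± 0.05 (SE; 95% interval -0.21 to 0.01; adjusted p = 0.272). Without on replicate 1 it was -0.15 ± 0.04 (SE, adjusted p = 0.0231). Of the 9 neuron markers 7 had a negative difference, with a median of -0.08, where 48.5% of all tested genes were negative. Limma called 0 of the 9, and 3 had an unadjusted p under 0.05, against 20.7% of all tested genes. Their median was -0.041 after the correction for GC content and length. The part of neurons in the values of Prdx2 was not tested. Prdx2 (ENSMUSG00000005161), on chromosome 8 at 84969587 to 84974834 (plus strand), shares 177 exon bases with Rnaseh2a and 173 with Junb, both on the opposite strand. The mean rlog was 9.33 for Rnaseh2a and 10.49 for Junb, against 12.56 for Prdx2. The kit keeps the strand, but no source at hand gives the strand setting of the counting, so reads of overlapping genes may not have been told apart.

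Prdx1 had 12.37, 12.26, 12.29 and 12.27 in the on libraries, against 12.39, 12.32 and 12.26 in the off libraries. Both groups spanned nearly the same range, with a difference of -0.024 ± 0.04 (SE; 95% interval -0.11 to 0.07; adjusted p = 0.787), and -0.048 ± 0.04 (SE) without on replicate 1. Prdx4, the peroxiredoxin of the endoplasmic reticulum, had 9.09, 8.85, 8.95 and 8.99 in the on libraries, against 9.06, 8.98 and 8.93 in the off libraries. On replicate 1 was the highest of the 7 and on replicate 2 the lowest, and the difference was -0.022 ± 0.06 (SE; 95% interval -0.15 to 0.1; adjusted p = 0.87), and -0.061 ± 0.05 (SE) without on replicate 1. Prdx1 (ENSMUSG00000028691) is on chromosome 4 at 116685544 to 116700822, plus strand, and Prdx4 (ENSMUSG00000025289) on chromosome X at 155323918 to 155340754, minus strand.

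Prdx3 and Prdx5 are the mitochondrial peroxiredoxins. Prdx3 is imported into the matrix, and Prdx5 is also found in peroxisomes and the cytosol. Prdx5 had the largest difference of the 10. Its values were 12.49, 12.25, 12.33 and 12.24 in on replicates 1 to 4, against 12.44, 12.54 and 12.47 in the off libraries. On replicate 1 lay among the off libraries and the other 3 on libraries lay below all of them. The means were 12.33 ± 0.12 in on and 12.48 ± 0.05 in off (SD), and the difference was -0.15 ± 0.05 (SE; 95% interval -0.27 to -0.04; limma adjusted p = 0.132), a change of -10.2% on the shrunken scale. Without on replicate 1 Prdx5 was lower, with -0.21 ± 0.04 (SE, adjusted p = 0.00325). Prdx5 (ENSMUSG00000024953), on chromosome 19 at 6906697 to 6910106 (minus strand), shares 409 exon bases with Trmt112 on the opposite strand, whose mean rlog was 8.29 against 12.4 for Prdx5.

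Prdx3 had 11.05, 10.99, 10.97 and 10.94 in on replicates 1 to 4, against 11.15, 11.08 and 11.04 in the off libraries. On replicates 2 to 4 lay below every off library and on replicate 1 just above off replicate 3. The difference was -0.1 ± 0.04 (SE; 95% interval -0.19 to -0.02; limma adjusted p = 0.178), and without on replicate 1 it was -0.13 ± 0.04 (SE, adjusted p = 0.0455). Prdx3 (ENSMUSG00000024997) is also on chromosome 19, at 60864051 to 60874556, minus strand.

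Prdx6, the 1-Cys peroxiredoxin, is abundant in astrocytes and also reduces oxidised phospholipids. It had 12.65, 12.57, 12.60 and 12.53 in the on libraries, against 12.72, 12.62 and 12.67 in the off libraries. On replicate 1 lay among the off libraries and on replicates 2 to 4 lay below them. The difference was -0.082 ± 0.04 (SE; 95% interval -0.17 to 0.0039; adjusted p = 0.261), and without on replicate 1 it was -0.1 ± 0.04 (SE, adjusted p = 0.0728). The 8 astrocyte markers had a median difference of -0.014, with 0 called by limma and 0 at an unadjusted p under 0.05. Prdx6 (ENSMUSG00000026701) is on chromosome 1 at 161240112 to 161251219, minus strand.

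**Figure D2:**
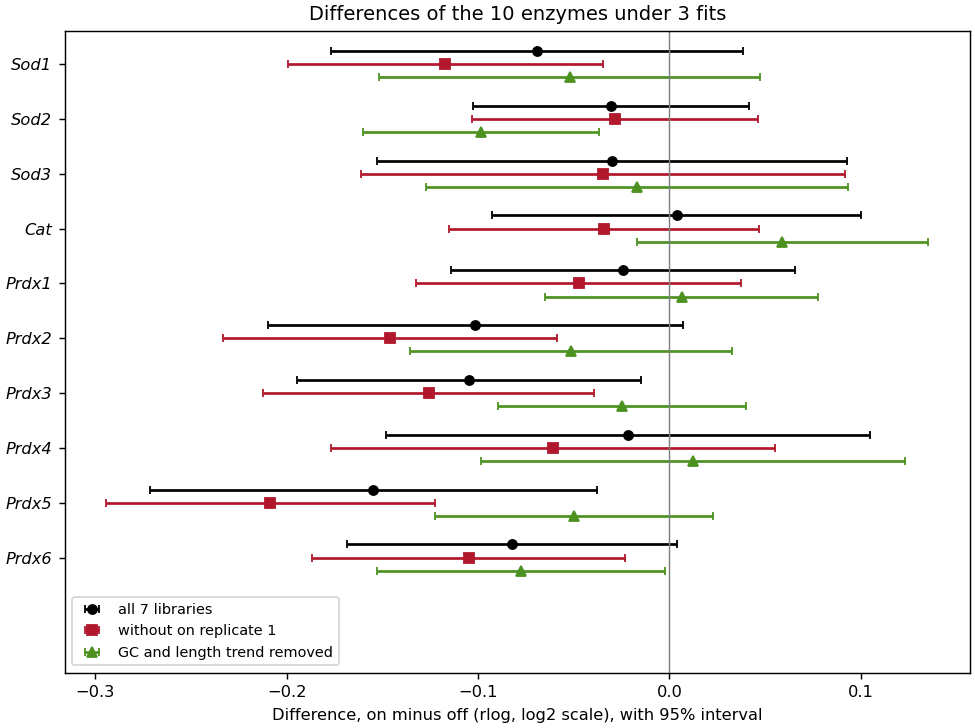
Differences, on minus off, on the rlog (log2) scale (x axis) with 95% intervals, for the 10 enzymes (y axis), with all 7 libraries (black), without on replicate 1 (red) and after correction of each library for GC content and length (green). With all 7 libraries the intervals of Prdx3 and Prdx5 lie below 0 before adjustment over all genes, and after the removal of the trend those of Sod2 and Prdx6 do.

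Near-identical copies matter for counting in this family. At 90% identity over 300 bases or more, Prdx1 matched 3 processed pseudogenes, Prdx2 matched 1 and Sod1 matched 1. The mean rlog of these copies did not exceed 2.78 (Gm8566, a copy of Sod1), against 12.3 or more for the enzymes, so reads assigned to the copies were few. No source at hand says how reads that match several places were counted. The match of Prdx5 was to the overlapping Trmt112, and none was found among GENCODE transcripts for Prdx3, Prdx4, Prdx6, Sod2, Sod3 or Cat.

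Levels were compared between genes per length, as the mean rlog minus log2 of the merged exon length in kilobases. On this scale Prdx5 was highest at 11.30 and Sod3 lowest at 6.77, a span of more than 4 log2 units. The order of the levels was Prdx5, Prdx2 (10.95), Prdx1 (10.70), Prdx3 (10.47), Sod1 (10.36), Prdx6 (10.36), Cat (9.44), Sod2 (9.09), Prdx4 (7.90) and Sod3. Each neighbouring pair in this order of levels differed by more than the SD of either gene over the 7 libraries, which was at most 0.12, except Sod1 and Prdx6, whose levels differed by 0.0069. The order depends on the length used, because merged exons include retained introns and alternative ends. With the longest transcript, Prdx2 had the highest level (11.87), followed by Prdx5 (11.53), Prdx6 (11.27) and Prdx1 (11.11), and Cat, Prdx4 and Sod3 were the 3 lowest.

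**Figure D3:**
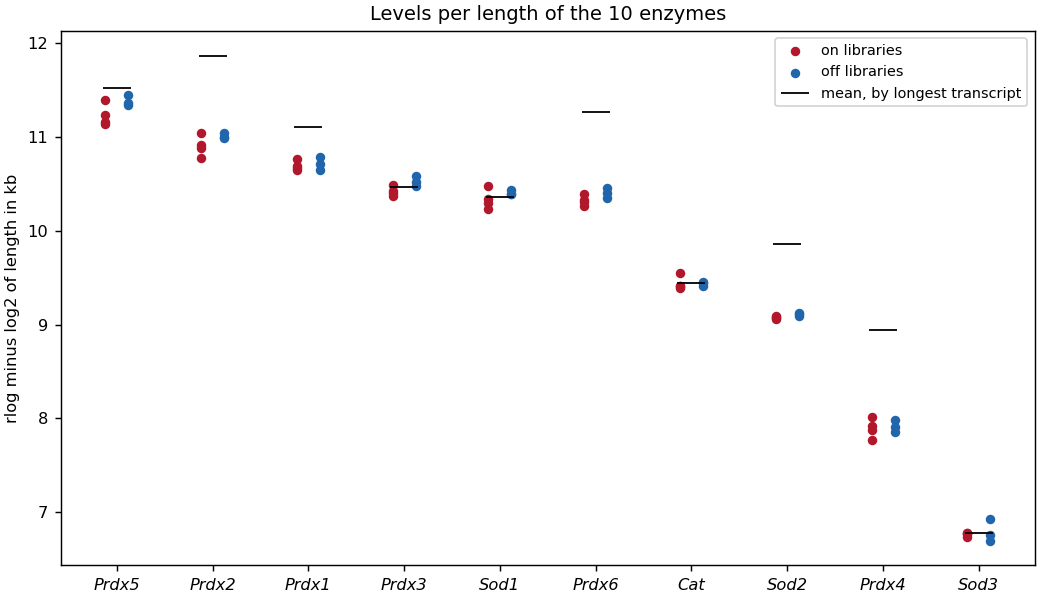
Level per length (y axis, rlog minus log2 of the merged exon length in kilobases) of the 10 enzymes (x axis, high to low), with 1 point per on library (red) and off library (blue); the black dash is the mean computed with the longest transcript. Levels run from 11.30 for Prdx5 to 6.77 for Sod3, and libraries of 1 gene span at most 0.305.

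Some genes of this set, such as Prdx1, are known targets of NRF2 (Nfe2l2), a transcription factor that binds antioxidant response elements with the core TGACNNNGC when KEAP1 releases it. RefSeq promoters (GRCm38.p6, 250 bases before to 50 after the start) were found for 8 of the 10 enzymes, all but Prdx6 and Sod3. The core was searched on both strands. It stood in the promoters of Prdx1 and Sod1 and not in the other 6 windows, against 12.4% of all 32851 promoters. In Prdx1 the match lies at -133 from the start and in Sod1 at -56, both on the strand opposite to the gene, and the Prdx1 match also holds the AP-1 motif TGACTCA on that strand. Both windows are shown to place the match, and that of Prdx5, the enzyme with the largest difference, to show a window without it. They lie at chr4:116685349-116685648 (plus), chr16:90220512-90220811 (plus) and chr19:6910057-6910356 (minus), and capitals mark the match.
Prdx1: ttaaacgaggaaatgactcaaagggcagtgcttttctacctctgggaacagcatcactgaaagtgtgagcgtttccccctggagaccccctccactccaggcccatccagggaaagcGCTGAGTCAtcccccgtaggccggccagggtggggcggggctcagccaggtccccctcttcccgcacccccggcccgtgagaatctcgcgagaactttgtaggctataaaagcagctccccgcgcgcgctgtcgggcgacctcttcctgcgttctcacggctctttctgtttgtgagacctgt
Sod1: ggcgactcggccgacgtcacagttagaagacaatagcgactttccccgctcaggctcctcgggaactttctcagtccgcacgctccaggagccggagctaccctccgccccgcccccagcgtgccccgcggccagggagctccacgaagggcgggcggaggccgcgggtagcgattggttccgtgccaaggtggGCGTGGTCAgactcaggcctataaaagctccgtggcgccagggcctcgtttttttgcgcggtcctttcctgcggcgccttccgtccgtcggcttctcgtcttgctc
Prdx5: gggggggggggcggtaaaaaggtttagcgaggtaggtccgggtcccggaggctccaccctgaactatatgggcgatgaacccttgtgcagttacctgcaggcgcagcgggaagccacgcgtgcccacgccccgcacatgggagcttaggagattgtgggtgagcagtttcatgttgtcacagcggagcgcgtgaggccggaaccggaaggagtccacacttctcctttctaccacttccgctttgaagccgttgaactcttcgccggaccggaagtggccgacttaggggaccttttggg
A match is a description of these letters only. Prdx1 and Sod1, with the core, differed by -0.024 and -0.069. Without it, Prdx5 differed by -0.15, Prdx3 and Prdx2 by -0.1 each, Sod2 by -0.03, Prdx4 by -0.022 and Cat by 0.0038. The differences without the core thus lay on both sides of those with it. None of the 8 passed the threshold with all 7 libraries.

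Across the table, differences between on and off followed gene length. The rank correlation (Spearman) of each library's deviations from the gene means with length was 0.285, 0.294 and 0.272 in on replicates 2 to 4. It was -0.0753 in on replicate 1 and -0.292, -0.227 and -0.254 in off replicates 1 to 3. The enzymes were therefore set beside genes of like length. The median difference was -0.025 in the shortest of 5 length classes of tested genes (57 to 2108 bases), -0.023 in the next (2109 to 3333 bases), -0.0069 and 0.016 in the third and the fourth and 0.055 in the longest (7072 bases and over). Prdx3 (1478 bases), Prdx5 (2139 bases) and Prdx2 (3050 bases) lay more than 1 SE below the medians of their length classes. So did Sod1 (3970 bases) and Prdx6 (4804 bases), while Prdx4, Prdx1, Cat and Sod3 lay within 1 SE of theirs. Sod2, at 10008 bases of merged exons, lay in the longest class, of which 20.8% had a negative difference. Its longest transcript has 5861 bases, a length that falls in the fourth class (4781 to 7069 bases), of which 40.9% were negative.

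After each library's smooth trend with GC content and length was removed, the differences of Prdx5, Prdx3 and Prdx2 were -0.05 ± 0.03, -0.025 ± 0.03 and -0.051 ± 0.04 (SE), each closer to 0 than before. That of Prdx6 was -0.078 ± 0.03 (SE, adjusted p = 0.275) and hardly moved. That of Sod2, corrected by its merged exon length and not by its longest transcript, became larger, -0.098 ± 0.03 (SE, adjusted p = 0.118). Its corrected values were 12.42, 12.34, 12.35 and 12.36 in on replicates 1 to 4, against 12.44, 12.47 and 12.49 in the off libraries. Sod2 was the 1 enzyme of the 10 whose groups then did not overlap with on lower, where 8.19% of all genes did so. In limma 0 of the 10 were called after the correction, against 0.555% of genes called lower. An unadjusted p under 0.05 was reached by 2, but the share of all genes there was not computed for this fit, so that count cannot be read. With on replicate 1 left out as well, Sod2 was called lower, with -0.11 ± 0.03 (SE, adjusted p = 0.0172), where 5.02% of genes were. In that fit Prdx5, Prdx2, Prdx3 and Sod1 were not called. Their differences were -0.076, -0.083, -0.026 and -0.098 (limma adjusted p = 0.107, 0.11, 0.65 and 0.0697). Whether this trend is technical or biological cannot be told apart in these libraries.

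**Figure D4:**
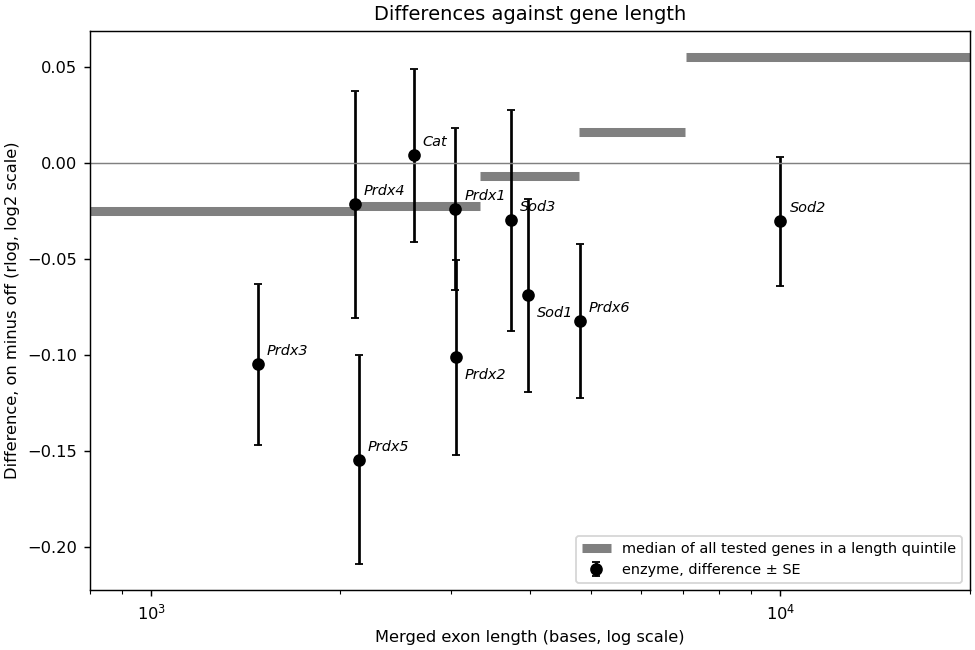
Difference, on minus off (y axis, rlog, log2 scale), against merged exon length (x axis, bases, log scale) for the 10 enzymes (points with SE), with the median of all tested genes in each length class as a grey bar. The bars climb from -0.025 for the shortest genes to 0.055 for the longest, and Sod2 at 10008 bases lies below its bar.

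The enzymes work in chains with other redox genes, which were examined as 9 lists chosen with earlier results of these data known. In the thioredoxin system, which restores the peroxiredoxins, 1 of 10 genes fell and 9 did not pass, with a median difference of -0.025. Without on replicate 1 the list again had 1 lower and 0 higher. The gene that fell was Txn1, the cytosolic thioredoxin, with 10.54, 10.45, 10.47 and 10.43 in the on libraries, against 10.66, 10.69 and 10.59 in the off libraries. Every on value was below every off value, and the difference was -0.17 ± 0.04 (SE, limma adjusted p = 0.0486). Txn1 missed the threshold without any single library other than on replicate 1 (adjusted p 0.0888 to 0.231), and after the GC and length correction it was -0.077 ± 0.03 (SE, adjusted p = 0.205). Its mitochondrial counterpart Txn2 differed by -0.081 ± 0.05 (SE, adjusted p = 0.337), and sulfiredoxin (Srxn1), which repairs overoxidised peroxiredoxins, by -0.049 ± 0.04 (SE, adjusted p = 0.537). Txn2 and Srxn1 were named for their role after their values were seen. The other gene of the list at an unadjusted p under 0.05 was Sesn3, a sestrin, with 13.02, 13.03, 12.98 and 13.03 in the on libraries, against 12.94, 12.93 and 12.88 in the off libraries. All on values of Sesn3 lay above all off values, its difference was 0.097 ± 0.03 (SE, adjusted p = 0.138), and after the GC and length correction it was -0.00066.

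Glutathione peroxidases remove peroxide by another route. Of 5 tested, 1 fell and 4 did not pass, with a median of -0.1, and Gpx2 was below the filter. The median was -0.02 after the correction and -0.22 without on replicate 1, where 2 were called lower, Gpx4 and Gpx1 (-0.22, adjusted p = 0.00513). The gene that fell was Gpx4, which reduces lipid peroxides in membranes, with 12.26, 12.12, 12.11 and 12.14 in the on libraries, against 12.32, 12.38 and 12.32 in the off libraries. The groups did not overlap and the difference was -0.18 ± 0.04 (SE, adjusted p = 0.0377). It too missed the threshold without any single library other than on replicate 1 (adjusted p 0.0655 to 0.201), and after the correction it was -0.034 ± 0.03 (SE, adjusted p = 0.573).

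Among genes of glutathione synthesis and recycling and the glutaredoxins, 1 of 13 fell and 12 did not pass, with a median of -0.03. Without on replicate 1, 2 were called lower, Glrx5 and Glrx. Glrx5, a mitochondrial glutaredoxin that serves in the assembly of iron-sulfur clusters, had 9.84, 9.82, 9.68 and 9.72 in the on libraries, against 10.10, 10.06 and 10.01 in the off libraries. All on values lay below all off values, and the difference was -0.3 ± 0.05 (SE, adjusted p = 0.0101). It passed after the GC and length correction, at -0.28 ± 0.05 (SE, adjusted p = 0.0246), and with any library left out except off replicate 2 (adjusted p = 0.0691).

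The other 6 lists gave 0 calls in limma with all 7 libraries, and each gave calls without on replicate 1. Then 3 were called lower among the glutathione transferases, 3 among the NRF2 genes, 1 among the sources of superoxide, 3 among the peroxisomal genes and 3 in the repair list, and in the copper list 2 were called higher and 1 lower. In that fit 8.02% of all tested genes were called lower. The counts at an unadjusted p under 0.05 given next, with all 7 libraries, stand beside 20.7% of all tested genes. All 10 glutathione transferases had a negative difference with a median of -0.08, and 3 had an unadjusted p under 0.05, among them Mgst3 at -0.15 ± 0.05 and Gstp1 at -0.19 ± 0.06 (SE, adjusted p = 0.0965 and 0.111). After the correction the median of this list was -0.0061, with Mgst3 at -0.043 and Gstp1 at -0.1. NRF2 regulators and targets had a median of -0.016 over 10 genes, with 3 at an unadjusted p under 0.05, and the smallest p belonged to Keap1, the inhibitor of NRF2, at -0.14 ± 0.04 (SE, adjusted p = 0.0987), and the ferritin gene Ftl1, at -0.18 ± 0.07 (adjusted p = 0.172). For delivery of copper and other metals to the dismutases the median was 0.04 over 8 genes, with 3 at an unadjusted p under 0.05. The copper pump Atp7a differed by 0.24 ± 0.06 (SE, adjusted p = 0.0522) and the copper chaperone Atox1 by -0.22 ± 0.07 (SE, adjusted p = 0.1). Ccs, the chaperone that loads Sod1 with copper and was named for that role, differed by -0.052 ± 0.05 (SE, adjusted p = 0.626). After the correction Keap1 was at -0.084, Ftl1 at -0.038, Atp7a at 0.17 and Atox1 at -0.088, each closer to no difference than before.

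Sources of superoxide and peroxide had a median of 0.0054 over 13 tested genes with 1 at an unadjusted p under 0.05, and Nox1, Duox1 and Hao1 were below the filter. Dao, a peroxisomal oxidase, differed by 0.15 ± 0.06 (SE, adjusted p = 0.16), and Cyba, a subunit of NADPH oxidase, by -0.15 ± 0.07 (adjusted p = 0.243). After the GC and length correction Dao was at 0.19 and Cyba at -0.11. Peroxisomal import and matrix genes, the surroundings of Cat, had a median of -0.028 over 19 genes with 3 at an unadjusted p under 0.05. Among them Pex6 differed by -0.18 ± 0.05 (SE, adjusted p = 0.0656) and Pex16 by -0.17 ± 0.05 (adjusted p = 0.101). Pex6 and Pex16 were both at -0.052 after the correction. Repair of oxidised protein and DNA together with the Parkinson disease genes Park7 and Pink1 had a median of -0.072 over 8 genes with 3 at an unadjusted p under 0.05, led by Pink1 at -0.17 ± 0.05 and Ogg1 at -0.18 ± 0.06 (SE, adjusted p = 0.093 and 0.109). After the correction the median of this list was -0.029, with Pink1 at -0.066 and Ogg1 at -0.17 (limma adjusted p = 0.35 and 0.142).

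**Figure D5:**
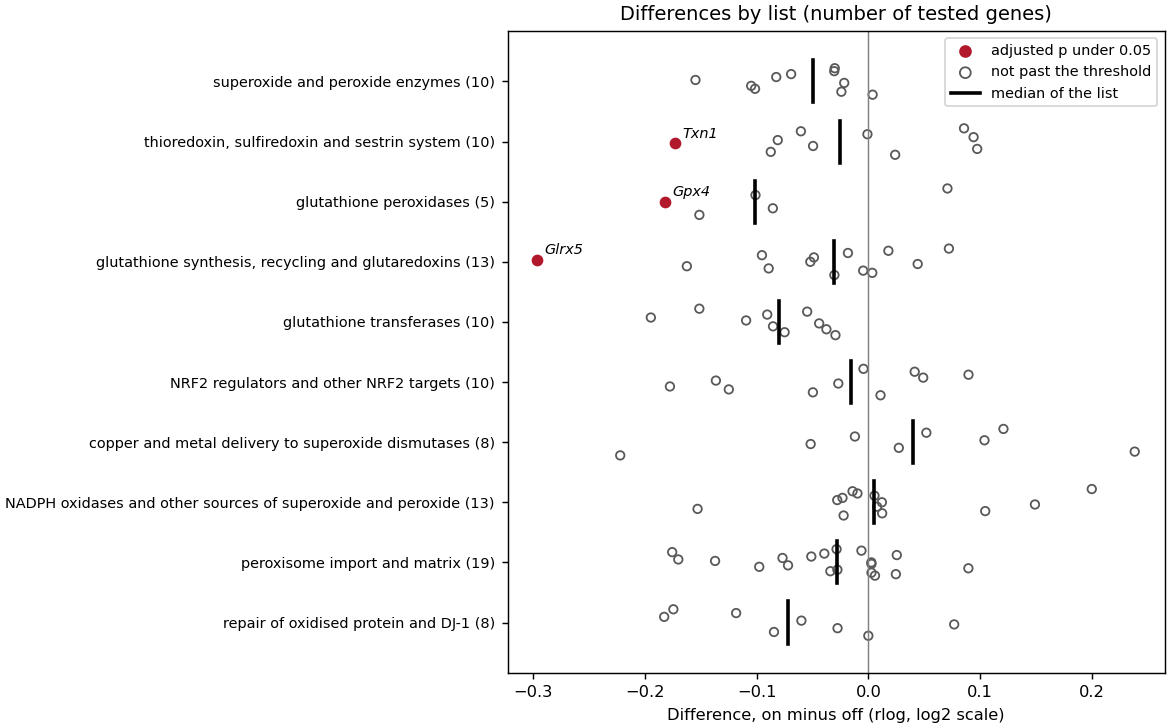
Each point is the difference, on minus off (x axis, rlog, log2 scale), of 1 tested gene in the list named on the y axis, where the number of tested genes stands in brackets. Red points passed an adjusted p of 0.05, and the black bar is the list's median. The 3 red points are Txn1, Gpx4 and Glrx5, and no point in the top row, the 10 enzymes, is red.

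Prdx5, with the smallest p of the 10, was also set beside every other tested gene by the root mean square distance between deviations from the gene mean over the 7 libraries. The 3 nearest genes were Mrpl28 at 0.0154, Nr2c2ap at 0.0171 and Pink1 at 0.021, where the SD of Prdx5 itself over these libraries was 0.12. Mrpl28 had 10.14, 9.89, 9.98 and 9.92 in the on libraries, against 10.11, 10.20 and 10.13 in the off libraries. As in Prdx5, on replicate 1 lay among the off libraries and on replicates 2 to 4 below them. The 3 genes were selected for this likeness over the same libraries, so their pattern and differences are no separate result. The differences were -0.16 ± 0.06 for Mrpl28, -0.13 ± 0.06 for Nr2c2ap and -0.17 ± 0.05 for Pink1 (SE, adjusted p = 0.121, 0.258 and 0.093), so none of the 3 passed.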

How the data were processed

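The authors deposited rlog values (log2 scale), 1 column per library. Their processing notes name GRCm38 and, without roles, STAR 2.5.2, BWA 0.7.14-r1136, Subread 1.5.3, cutadapt 1.9.1 and the authors' DESeq2 1.16.1. The annotation release, strand setting and rlog options are not stated. No counts were used, so depth is unknown.

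Symbols were found for 99.2% of the 48526 identifiers in GENCODE M21, which also gave positions and merged exon lengths; GC content is that of the longest transcript. Differences, on minus off, were fitted across the 17896 tested genes with limma 3.58.1 in R 4.3.3 (group term, intensity trend, two-sided, Benjamini-Hochberg over all tested genes, threshold 0.05). The correction removed a smooth trend with GC content and length from each library in 3 classes of mean value (mgcv 1.9.3; 17831 genes). Copies were searched with blastn 2.17.0. The fit was tested on simulated data. No libraries held identical values. Protein features of the enzymes, which had been planned, were not analysed here.

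The named genes were the 10 enzymes, called genes of each related list or otherwise the 2 with the smallest p, and the 3 genes nearest to Prdx5; Txn2, Srxn1, Sesn3, Gpx1, Glrx, Ccs, Park7, Slc4a1 and Hba-a1 fall outside it and were chosen after their values were seen. Members, lists and tests were chosen with earlier results of these data known.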

Additional observations from a re-analysis of the deposited data

Results flagged for a closer look

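A gap test of the 4 on libraries was run on 31 values, the 10 enzymes and the mean deviations of 21 lists. By chance it would single out about 1.55 of these 31, and it gave 3, all through on replicate 1. In Cat, on replicate 1 lay at 10.94, against 10.77 to 10.80 in the other on libraries. In the mean deviation of the glutathione transferases it lay at 0.0784, against -0.0836 to -0.062. In the mean deviation of the endothelial markers it lay at -0.238, against 0.133 to 0.176. Groups of 3, such as the off libraries, were not given this test.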

How the results depend on the processing

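Of the 17896 tested genes 466 were called. That count was 8 with no filter, 237 without the intensity trend, 2215 with array weights, 1182 at a threshold of 0.1, 139 after the GC and length correction and 1875 after it without on replicate 1. Leaving out 1 library gave 43 (without off replicate 2) to 2917 (without on replicate 1), with 175, 57, 85, 311 and 74 without on replicates 2, 3 and 4 and off replicates 1 and 3. Among the 10 enzymes 0 were called, and 0 to 4 with 1 library left out, the 4 without on replicate 1. The count was 1 with array weights (Prdx5, -0.18, adjusted p = 0.0205), 1 after the correction without on replicate 1 (Sod2), and 0 under the other alternatives run, which include quantile normalization, median centring and a mean rlog of 5 or more.

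The sign changed for Prdx1 after the correction (0.0064), after it with the replicate block (0.013) and without off replicate 1 (0.011). It changed for Prdx4 after the correction (0.012), after it with the block (0.0034), without on replicate 2 (0.019) and without off replicate 1 (0.012), and for Sod3 without off replicate 3 (0.036). Cat was -0.019 with array weights, -0.034 without on replicate 1 and -0.0092 without off replicate 1, but 0.059 ± 0.04 (SE) after the correction and 0.07 after it with the block. Prdx2, Prdx3, Prdx5, Prdx6, Sod1 and Sod2 kept a negative difference under every alternative run. With 1 library left out, the differences ran between -0.056 and 0.011 for Prdx1, -0.061 and 0.019 for Prdx4, -0.078 and 0.036 for Sod3, and -0.034 and 0.021 for Cat. The causes were not tested.

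Deviations of same-numbered libraries from their group means had r across genes of -0.228, -0.1 and 0.018, against -0.195 to 0.297 for unlike numbers. With so few libraries behind each group mean, these values cannot decide whether the numbers pair libraries. With the replicate number as a block, in which on replicate 4 has no partner, 30 genes and 0 enzymes were called, and 2 genes and 0 enzymes after the correction with the replicate block.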
